A study of Homo sapiens with 6 samples.

Results

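The mRNAs of 10 genes of the endoplasmic reticulum (ER) were examined for cross-linking to the translation initiation factor eIF4B. They were HSPA5, HSP90B1, CALR, CANX, P4HB, PDIA3, PDIA4, PDIA6, XBP1 and SSR4, and a row of the deposited tables was taken as theirs where its gene name was exactly one of these symbols. All 10 were listed in both cell lines, among 22125 genes listed in either of them, of which 13668 were protein-coding. The assay was iCLIP, a UV cross-linking and immunoprecipitation method that resolves single nucleotides, in which RNA is cross-linked to protein in living cells, the protein is immunoprecipitated, and the end of each cDNA marks the nucleotide next to the contact. The labels name no treatment, and 2 lines were compared, namely DoHH-2, derived from a diffuse large B-cell lymphoma, and GM01953, a B-cell line from a disease-free donor. The 4 DoHH-2 and 2 GM01953 replicates had been pooled by the authors into 1 table per line, so no value below has a replicate error and no test between the lines was possible. No control precipitation was analysed here. Each line is 1 genetic background, and all intervals are exact 95% intervals that cover counting error only.

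Proteins that enter the ER are folded there by chaperones, among them the HSP70 protein encoded by HSPA5, the HSP90 protein encoded by HSP90B1, and the lectins calreticulin (CALR) and calnexin (CANX), which hold glycoproteins while they fold. The protein disulphide isomerases (P4HB, PDIA3, PDIA4 and PDIA6) form and rearrange disulphide bonds, and SSR4 is a subunit of the complex associated with the protein-conducting channel. When unfolded proteins accumulate, the sensor IRE1 removes a short segment from the XBP1 mRNA, which then encodes a transcription factor that induces many ER genes. B cells that mature towards antibody secretion are known for a large ER. eIF4B is known as a partner of the helicase eIF4A, which unwinds the 5′ UTR ahead of the start codon.

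The DoHH-2 table held 2033156 cDNA counts at 1179243 positions and the GM01953 table held 167197 counts at 78474 positions, a depth ratio of 12.2. A single count was therefore worth 0.492 CPM (counts scaled to a total of 1000000) in DoHH-2 and 5.98 CPM in GM01953. Histone genes took 16.2% and 10.5% of the counts, respectively, and 10.3% and 15.98% lay at positions with no gene. The B-cell markers MS4A1, CD79A, CD79B, PAX5 and CD74 were listed in both lines, while 1 of 4 T-cell markers and 0 of 4 myeloid markers were listed in either. Of these B-cell markers, MS4A1, CD79A and CD74 were at least 2-fold higher in GM01953, with MS4A1 at 6.39 CPM in DoHH-2 and 909 CPM in GM01953. Of the 5 plasma cell markers, JCHAIN, the joining chain of secreted antibodies, and MZB1, an ER protein of antibody-secreting cells, were 3.62-fold and 3.59-fold higher in DoHH-2, and the 5 summed to 2296 and 706 CPM, of which JCHAIN alone made up 1968 and 544 CPM. TNFRSF17 stood at 39.8 CPM in DoHH-2 and 65.8 CPM in GM01953, and PRDM1 and SDC1 were too low for a fold. The part of these marker differences in the values below was not tested. RNA levels were not used here, so a count reflects the amount of an mRNA as well as its binding.

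The positions with the most counts on the members' mRNAs lay in 5′ UTRs, coding sequences and 3′ UTRs, in stretches that differed in their number of uridines. The sequences below show the nucleotides around such positions, read from the GRCh38 reference in the sense of the mRNA, with the cross-linked nucleotide in capitals. The first 4 lie in 3′ UTRs, in the last exon of each gene, and carry the position with the highest count in DoHH-2, followed for PDIA3 by that in GM01953.
HSP90B1, chr12:103947725-103947753, plus strand: ttgggagagacttgTtttggatgccccct
CALR, chr19:12944106-12944134, plus strand: ttaaactggtatttTatctttgattctcc
PDIA3, chr15:43771471-43771499, plus strand: ttgagttgggggtaTtttctaattttttt
PDIA4, chr7:149003647-149003675, minus strand: taattttttatactTtggtgtttcacttc
PDIA3 in GM01953, chr15:43771473-43771501, plus strand: gagttgggggtattTtctaattttttttg

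In those 5 stretches 10 to 17 of the 29 nucleotides were uridine (T in the reference). Not all highest positions in 3′ UTRs were of this kind. The stretches of P4HB, PDIA6 and SSR4 in GM01953 held 7, 4 and 8 uridines and that of HSPA5 in DoHH-2, shown further on, held 6. The PDIA6 position, with 4 counts, was the highest on its mRNA, while a position of the gene outside the mRNA held 6. The next set lies in first exons and shows the highest positions of HSPA5, CALR and CANX in GM01953, which are in the 5′ UTR, and of SSR4 in DoHH-2, which is early in the coding sequence (CDS).
HSPA5, chr9:125241226-125241254, minus strand: tgcccttcgcctggTtcgtggcgccttgt
CALR, chr19:12938656-12938684, plus strand: gcgttgccgcccccTcggcccgccatgct
CANX, chr5:179699020-179699048, plus strand: gcctctctctttacTgcggcgcggggcaa
SSR4, chrX:153794690-153794718, plus strand: ggcggcgatggcatCtctcggcgccctgg

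These stretches held 5 to 10 uridines each, and in SSR4 the cross-linked nucleotide was a C at nt 17 of the CDS, counted from the A of the start codon. Positions inside the CDS and in the HSPA5 3′ UTR are shown by a last set, which carries the highest position of HSPA5 and PDIA6 in DoHH-2 and of HSP90B1 in GM01953.
HSPA5, 3′ UTR in exon 8, chr9:125236366-125236394, minus strand: agaattggccatctTaaaaagcgggtaaa
PDIA6, CDS in exon 2, chr2:10802543-10802571, minus strand: taactccatcgaatTtcaaccgagaagtt
HSP90B1, CDS in exon 9, chr12:103941465-103941493, plus strand: tcaaatcaattttaTttgtacccacatct

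Together the 10 genes held 7898 counts at 4340 positions in DoHH-2 and 558 counts at 298 positions in GM01953. This was 0.388% (0.380 to 0.397) and 0.334% (0.307 to 0.363) of all counts, a ratio of 1.16 (1.07 to 1.27). The ratio fell to 0.969 when each position was counted once whatever its count. Sites were positions to which the authors' peak calling had given a false discovery rate below 0.05, and a gene was called bound with more than 20 counts at sites. The study also required enrichment over total RNA, a step left out here, so bound means only that this count was passed. In DoHH-2, 9 of the 10 were bound, against 33.3% of coding genes with a count, and XBP1 was not, with 12 counts at sites. In GM01953, 8 of the 10 were bound, against 8.34% of coding genes, and XBP1 and SSR4 were not, with 0 and 9 counts at sites. The GM01953 number fell to 5 at a false discovery rate below 0.01 and to 2 with more than 50 counts.

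HSPA5 had more CPM in DoHH-2, while HSP90B1 did not differ beyond counting error. HSPA5, the main HSP70 chaperone of the ER lumen (chr9:125234853-125241382, minus strand), held 1443 counts or 710 CPM (674 to 747) in DoHH-2 and 54 counts or 323 CPM (243 to 421) in GM01953. Among coding genes ranked by CPM it stood 99th in DoHH-2 and 309th in GM01953. HSP90B1, the HSP90 chaperone of the ER (chr12:103930107-103953931, plus strand), held 1334 counts or 656 CPM (621 to 692) and 89 counts or 532 CPM (427 to 655). The intervals of HSPA5 in the 2 lines lay apart and those of HSP90B1 overlapped. A microRNA gene inside HSP90B1, MIR3652, was also listed at positions with 32 of its counts in DoHH-2 and 3 in GM01953.

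The lectin chaperones went different ways. Calreticulin, the soluble lectin (CALR, chr19:12938578-12944489, plus strand), held 940 counts or 462 CPM (433 to 493) in DoHH-2 and 144 counts or 861 CPM (726 to 1014) in GM01953, where it stood 64th among coding genes. Calnexin, the membrane-bound lectin (CANX, chr5:179678628-179731641, plus strand), held 1051 counts or 517 CPM (486 to 549) and 91 counts or 544 CPM (438 to 668). CALR was the only one of the 10 whose GM01953 interval lay wholly above its DoHH-2 interval, while the intervals of CANX overlapped.

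Among the disulphide isomerases, PDIA6 (chr2:10783391-10837977, minus strand) and PDIA4 (chr7:149003062-149028662, minus strand) had more CPM in DoHH-2. PDIA6 held 991 counts or 487 CPM (458 to 519) in DoHH-2 and 40 counts or 239 CPM (171 to 326) in GM01953. PDIA4 held 714 counts or 351 CPM (326 to 378) and 38 counts or 227 CPM (161 to 312). P4HB, which also serves as the beta subunit of prolyl 4-hydroxylase (chr17:81843159-81860856, minus strand), held 546 counts or 269 CPM (246 to 292) and 48 counts or 287 CPM (212 to 381). PDIA3, the isomerase that works with the lectins on glycoproteins (chr15:43746394-43773279, plus strand), held 391 counts or 192 CPM (174 to 212) and 30 counts or 179 CPM (121 to 256). P4HB and PDIA3 thus overlapped between the lines.

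SSR4, the translocon-associated subunit (chrX:153793516-153798499, plus strand), held 366 counts or 180 CPM (162 to 199) in DoHH-2 and 15 counts or 89.7 CPM (50.2 to 148) in GM01953. XBP1, the transcription factor of the unfolded protein response (chr22:28794555-28800597, minus strand), held 122 counts or 60.01 CPM (49.8 to 71.6) in DoHH-2 and 9 counts or 53.8 CPM (24.6 to 102) in GM01953. The intervals of SSR4 lay apart and those of XBP1 overlapped, and the count of XBP1 in GM01953 could not show a difference of moderate size.

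**Figure D1:**
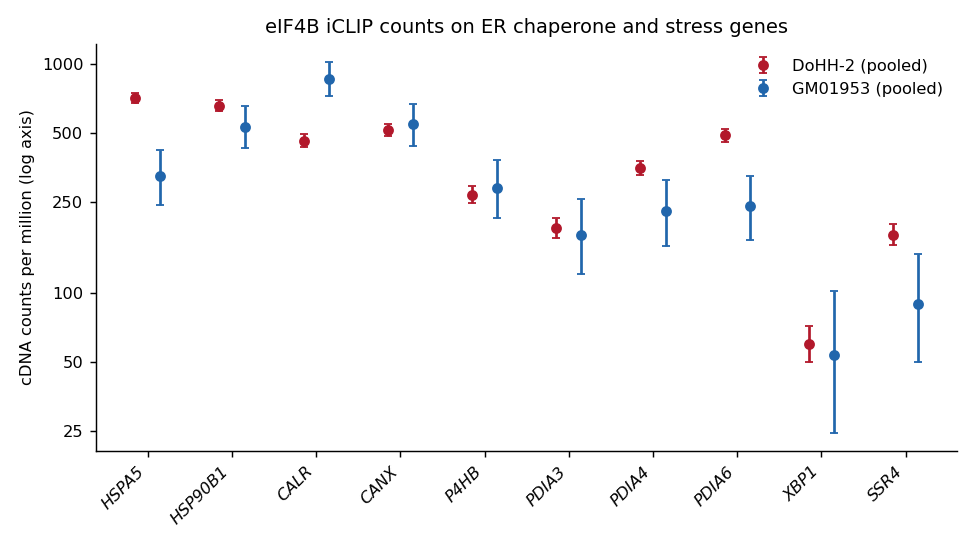
Level of each of the 10 genes as CPM on a log axis, red for the pooled DoHH-2 table and blue for the pooled GM01953 table, with exact 95% counting intervals as bars. HSPA5 stands at 710 against 323 CPM and CALR at 462 against 861 CPM, while CANX, P4HB, PDIA3 and XBP1 overlap.

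Per kilobase of spliced mRNA the order of levels changed. SSR4, with the shortest mRNA at 608 nt, had the highest density in DoHH-2 at 259 CPM per kb on its mRNA, followed by CALR at 232, HSP90B1 at 220, PDIA6 at 201 and HSPA5 at 170 CPM per kb. PDIA3 at 49.5 and XBP1 at 29.2 CPM per kb were lowest. In GM01953, CALR led with 440 CPM per kb, HSP90B1 followed with 187, and PDIA3 and XBP1 were again lowest with 48.8 and 29.1 CPM per kb. The density of SSR4 in GM01953, 108 CPM per kb, rested on 11 counts.

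A fold of CPM between the lines was computed for each of 6589 genes with a mean of at least 30 CPM over both lines, a filter all 10 members passed. Their median fold was 1.17 in the direction of DoHH-2, against 1.03 over all genes. HSPA5 at 2.20-fold (1.67 to 2.94), PDIA6 at 2.04-fold (1.49 to 2.87) and SSR4 at 2.01-fold (1.20 to 3.62) were at least 2-fold higher in DoHH-2, which is 3 of 10 against a background of 20.1% of all genes. None of the 10 was at least 2-fold higher in GM01953, against 19.8% of all genes. With 10 members, neither count is far from its background share.

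The remaining members lay within 2-fold. PDIA4 was 1.55-fold (1.11 to 2.20) higher in DoHH-2 and CALR was 1.86-fold (1.55 to 2.22) higher in GM01953. The intervals of HSP90B1 at 1.23-fold (0.994 to 1.55), XBP1 at 1.11-fold (0.568 to 2.50), PDIA3 at 1.07-fold (0.739 to 1.61), CANX at 1.05-fold (0.840 to 1.31) and P4HB at 1.07-fold (0.779 to 1.44), these 2 in the direction of GM01953, all held 1. In all, 5 of the 10 intervals left out 1, 4 above it and 1 below. At positions with a false discovery rate below 0.05, HSP90B1 joined HSPA5, PDIA6 and SSR4 past 2-fold, at 2.49-fold. Of all genes at that setting, 17.1% were at least 2-fold higher in DoHH-2 and 49.6% in GM01953. When counts assigned to a gene were the denominator, HSPA5 alone passed 2-fold, against 18.8% of all genes higher in DoHH-2 and 22.2% in GM01953. When each position was counted once, CALR was the 1 member past 2-fold and was higher in GM01953. Of all genes, 23.9% were then higher in DoHH-2 and 16.2% in GM01953.

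Other genes of the secretory pathway gave a wider view of the same comparison. Of 72 such genes, all listed, 66 passed the filter, 20 were at least 2-fold higher in DoHH-2 and 5 in GM01953, and their median fold was 1.26. The filter takes the mean of both lines, so a gene could pass it through 1 line alone, as SRPRA did at 77.2 CPM in DoHH-2 and 0 in GM01953. Background genes could pass in the same way, through either line. The shares over all genes were 20.1% and 19.8%, which stand as the background of each group below, and no group was tested against them. Of the 16 genes of the signal recognition particle and the translocon, 5 were higher in DoHH-2, among them SSR2, a partner of SSR4 in its complex, with 329 counts against 3 (ratio interval 3.06 to 43.96). The signal recognition particle receptor gene SRPRA had 157 counts in DoHH-2 and 0 in GM01953. With a floor of 3 counts set in place of the 0 this was 4.30-fold, while the exact interval of its ratio begins at 3.46. SEC61B, a subunit of the channel itself, was 2.50-fold (1.89 to 3.26) higher in GM01953 and was the 1 gene of its group in that direction.

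Of the 12 oligosaccharyltransferase and signal peptidase genes that passed the filter, 3 were higher in DoHH-2 and 1 in GM01953, the former near the 20.1% of all genes. RPN1, which encodes a subunit of the oligosaccharyltransferase, was 3.52-fold (1.60 to 9.69) higher in DoHH-2, and SEC11C, a catalytic subunit of the signal peptidase, was 2.47-fold (1.59 to 3.70) higher in GM01953. SEC11A, its sister subunit, had 118 counts in DoHH-2 and 1 in GM01953 (ratio interval 1.71 to 386). The glycoprotein folding cycle had 3 of 6 genes higher in DoHH-2 and 0 in GM01953, with CALU, a calcium-binding protein of the ER, at 2.89-fold (1.22 to 9.03) and the cargo lectin LMAN2 at 181 counts against 2 (2.03 to 61.9).

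Oxidative folding enzymes and proline isomerases had 2 of 9 genes higher in DoHH-2 and 0 in GM01953, the former again near 20.1%. These were TXNDC11, with 163 counts against 3 (1.502 to 21.9), and the isomerase FKBP11, with 92 against 3, whose ratio interval of 0.836 to 12.5 held 1. Among co-chaperones of HSP70 and related chaperones, 3 of 9 were higher in DoHH-2, including MZB1 at 3.59-fold (1.99 to 7.24) and SDF2L1 with 142 counts against 3 (1.31 to 19.1). In the same group DNAJC3, an inhibitory co-chaperone of the stress response, was 2.94-fold (1.78 to 4.68) and SIL1, a nucleotide exchange factor of the HSPA5 protein, 2.03-fold (0.925 to 3.99) higher in GM01953, the interval of SIL1 holding 1.

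Of the 9 genes of ER-associated degradation past the filter, UBE2J1, a ubiquitin-conjugating enzyme, at 3.67-fold (1.76 to 9.19) and SEL1L, the adaptor of the HRD1 ligase, at 3.03-fold (1.27 to 9.43) were higher in DoHH-2, and the lectin OS9 was 2.58-fold (1.34 to 4.64) higher in GM01953. Among the sensors of the unfolded protein response and their proteases, 2 of 5 were higher in DoHH-2 and 0 in GM01953. The median fold of these 5 was 0.905, in the direction of GM01953. The 2 past 2-fold were ERN1, which encodes the IRE1 enzyme that cleaves the XBP1 mRNA, at 3.62-fold (1.39 to 13.4), and the protease gene MBTPS1, whose product cleaves ATF6, at 3.50-fold (1.48 to 10.9). XBP1 itself differed by 1.11-fold, with an interval that held 1.

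The positions were then placed on 1 spliced transcript per gene. In DoHH-2, 6.42% (5.89 to 6.98) of the members' counts lay outside these mRNAs, in introns or other exons, and 4.48% (2.92 to 6.54) in GM01953, against 21.8% and 23.6% over all coding genes. P4HB had the highest such share of the 10 in DoHH-2, 16.1%. The remaining 7391 and 533 counts fell on 14.4% and 1.04% of the nucleotides of the 10 mRNAs, respectively. In DoHH-2 this listed share ran from 5.14% of the XBP1 mRNA to 23.3% of the CALR mRNA.

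In DoHH-2, 10.1% (9.38 to 10.8) of the members' mRNA counts lay in the 5′ UTR, 52.3% (51.2 to 53.5) in the CDS and 37.6% (36.5 to 38.7) in the 3′ UTR. The corresponding shares over all coding genes were 11.0%, 53.4% and 35.5%. By length, the 5′ UTR made up 3.60%, the CDS 55.2% and the 3′ UTR 41.1% of the 10 mRNAs, so counts were denser in the 5′ UTR than its length would give. In GM01953 the shares were 21.2% (17.8 to 24.9), 51.0% (46.7 to 55.4) and 27.8% (24.0 to 31.8), against 17.1%, 53.2% and 29.7% over all coding genes. The 5′ UTR share was higher in GM01953 both for the members and for all coding genes.

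Members differed widely in this respect. HSPA5 had 25.2% (22.9 to 27.6) of its 1355 mRNA counts in the 5′ UTR in DoHH-2 and 29.6% (18.0 to 43.6) of 54 in GM01953, and HSP90B1 had 2.82% (1.97 to 3.89) of 1243 and 3.45% (0.717 to 9.75) of 87. These 2 chaperone mRNAs lay at opposite ends of the range in DoHH-2, and the intervals of each overlapped between the lines. In GM01953, CALR and PDIA4 lay above HSPA5 and PDIA6 below HSP90B1. HSP90B1 was mostly cross-linked in its CDS, with 73.5% (71.0 to 76.0) of counts in DoHH-2 and 70.1% (59.4 to 79.5) in GM01953. CANX had the highest 3′ UTR share in DoHH-2, 62.4% (59.4 to 65.4), over a 3′ UTR of 3000 nt.

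The 5′ UTR share differed between the lines for CALR, CANX and PDIA4. It was 9.71% (7.85 to 11.8) in DoHH-2 and 30.7% (23.2 to 39.1) in GM01953 for CALR. For PDIA4 it was 5.15% (3.61 to 7.09) and 41.2% (24.6 to 59.3), the latter from 14 of 34 counts. For CANX it was 5.36% (4.06 to 6.91) and 28.6% (19.6 to 39.0), but a single nucleotide, 72 nt before the start codon, held 22 of the 91 GM01953 counts. Without the highest position in each line the CANX shares were 5.41% (4.10 to 6.98) and 5.80% (1.60 to 14.2), whereas those of CALR were 9.93% (8.03 to 12.1) and 25.95% (18.7 to 34.3). Those of PDIA4 were 5.30% (3.72 to 7.30) and 56.0% (34.9 to 75.6). Its highest GM01953 position lay in the CDS, so leaving it out could only raise the 5′ UTR share. Of the 14 PDIA4 counts in the 5′ UTR in GM01953, 12 lay at 4 nucleotides. That CANX position had 2 counts in DoHH-2.

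With the regions used in the study, each mRNA was divided into the 5′ UTR, the start codon region, the CDS, the stop codon region and the 3′ UTR. Codon regions reached 50 nt to each side, and the region with the most counts per kb was taken for genes with more than 20 mRNA counts. The study instead clustered genes by their pattern over these regions, so the shares below are not those of its groups. In DoHH-2 the 5′ UTR was densest in HSPA5, CANX, P4HB and PDIA3, 4 of 10 members against 29.5% of coding genes. The start codon region was densest in CALR, PDIA6, XBP1 and SSR4, 4 of 10 against 38.9%. The 3′ UTR was densest in HSP90B1 and PDIA4, 2 of 10 against 11.6%. The CDS and the stop codon region were densest in 0 members, against 6.47% and 13.6%. Each of these counts rests on at most 4 members. The call of P4HB rested on 8 counts in 14 nt. CALR had 930 counts per kb in the start codon region against 905 in its 5′ UTR, the latter from 19 counts in 21 nt.

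In GM01953, 8 members had enough counts. The 5′ UTR was densest in HSPA5 and CANX, against 33.4% of coding genes, and the start codon region in CALR, PDIA4 and PDIA6, against 32.6%. In P4HB the start and stop codon regions tied with 3 counts each, and it was counted with the start codon region, the first of the 2. The stop codon region was densest in PDIA3, against 14.7%, the 3′ UTR in HSP90B1, against 8.06%, and the CDS in 0 members, against 11.2%. HSPA5, HSP90B1, CALR, CANX and PDIA6 had the same densest region in both lines, while PDIA3, PDIA4 and the tied P4HB did not. For P4HB, PDIA3 and PDIA6 the densest region in GM01953 held at most 6 counts.

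In HSPA5 the counts built up over the 5′ UTR of 217 nt. The part more than 50 nt before the start codon held 320 counts in DoHH-2, or 1916 per kb, against 610 per kb around the start codon and 317 per kb in the CDS. In GM01953 the same part held 13 counts, or 77.8 per kb, against 26 counts over the 1862 nt of the CDS outside the codon regions. The highest GM01953 position, 114 nt before the start codon, held 6 counts and also held 6 counts in DoHH-2. The 5′ UTR was thus the densest region of HSPA5 in both lines.

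SSR4 and PDIA6 were densest at the start of translation. In SSR4, whose 5′ UTR has only 20 nt, 144 of 320 counts lay in the start codon region in DoHH-2, or 2057 per kb, against 303 per kb in the CDS. A window of 30 nt from 11 nt before to 19 nt into the CDS held 105 counts, 32.8% of the mRNA counts, while the corresponding share of the best window had a median of 13.0% over coding genes. Divided by the mRNA counts of the gene, the density of the SSR4 start codon region was higher than in 99.6% of coding genes. At even coverage this measure is higher for shorter mRNAs, and the SSR4 mRNA has 608 nt. PDIA6 had 130 counts, or 1300 per kb, in the start codon region, and its best window, from nt 37 to nt 66 of the CDS, held 95 counts. Its highest position, nt 103 of the CDS, held 34 counts in DoHH-2 and 0 in GM01953.

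Within 50 nt of the start codon, the counts of the members were divided unequally in GM01953. In DoHH-2, 264 counts lay before the start codon and 306 from it onwards, so that 46.3% (42.2 to 50.5) were on the 5′ UTR side. In GM01953, 66 lay before and 8 after, or 89.2% (79.8 to 95.2). Over all coding genes the share was 46.7% in DoHH-2 and 47.2% in GM01953. This comparison was chosen after the data had been seen.

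CALR gave 45 of the 74 GM01953 counts and PDIA4 gave 12, with 40 and 12 of them before the start codon. Without CALR the GM01953 share was 89.7% (72.6 to 97.8) from 29 counts, and with each position counted once it was 82.1% (66.5 to 92.5). In DoHH-2, CALR had 73.1% (62.9 to 81.8) and PDIA4 46.7% (31.7 to 62.1) before the start codon. Single coding genes varied greatly in this measure: among 233 with at least 10 such counts in GM01953 the median was 45.5%, with quartiles of 15.4% and 75%. Of these genes, 16.3% reached the 88.9% of CALR and 9.01% reached the 100% of PDIA4.

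CALR, PDIA3 and PDIA4 each had a narrow stretch of dense counts in the 3′ UTR. In CALR, a window of 30 nt from nt 186 to nt 215 after the stop codon held 138 of 896 mRNA counts in DoHH-2, 15.4%, and 6 of 140 counts in GM01953. In PDIA3, nt 256 to nt 285 held 90 of 370 counts in DoHH-2, 24.3%, and 8 of 30 in GM01953. The highest positions of PDIA3 in the 2 lines, nt 270 and nt 272 after the stop codon, were 2 nt apart. In PDIA4, nt 116 to nt 145 held 129 of 680 counts in DoHH-2, 18.97%, and 0 of 34 in GM01953.

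PDIA3 thus had its densest stretch at the same place in both lines. In GM01953 the densest stretch of CALR lay just before the start codon, where the last 30 nt of the 5′ UTR held 33 of 140 counts, 23.6%, against 29 of 896 in DoHH-2. That of PDIA4 lay 42 to 13 nt before its start codon, with 12 of 34 counts against 17 of 680 in DoHH-2. Over the members, the best window held a median of 9.64% of mRNA counts in DoHH-2 and 19.2% in GM01953, against 13.0% and 26.8% over coding genes.

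In HSP90B1 the best window in DoHH-2 lay in the CDS, from nt 1152 to nt 1181, with 101 of 1243 counts and 9 of 87 counts in GM01953. The highest GM01953 position, nt 1162 of the CDS in exon 9, lay inside it with 6 counts and held 7 in DoHH-2. The 3′ UTR of 267 nt had the highest density of the mRNA in both lines. Beyond the stop codon region it held 272 counts, or 1253 per kb, in DoHH-2 and 22 counts, or 101 per kb, in GM01953, against 385 and 26.4 per kb in the CDS.

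The counts of HSPA5 and PDIA3 ended early in long 3′ UTRs. In HSPA5, 95% of the 364 3′ UTR counts in DoHH-2 lay within the first 308 of 1742 nt, 17.7% of its length, and 13 counts lay in the 1392 nt beyond nt 350. In PDIA3, 95% of 172 counts lay within the first 291 of 2063 nt, 14.1% of its length, and 5 counts lay in the 1713 nt beyond nt 350. In GM01953 all 12 3′ UTR counts of HSPA5 lay within the first 212 nt, and all 9 of PDIA3 within the first 275 nt. Of the 31-nt stretches of these mRNAs, 24.7% in HSPA5 and 29.6% in PDIA3 also occur elsewhere in the genome, as described below. The part of such shared sequence in the missing counts was not tested.

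The other long 3′ UTRs were covered further. The corresponding length was 70.9% for CANX, 87.9% for CALR, 84.3% for PDIA6, 95.1% for P4HB, 95.2% for XBP1 and 43.3% for PDIA4 in DoHH-2. Among 3765 coding genes with a 3′ UTR of at least 500 nt and more than 20 counts on it, the median was 89.8%, and 4.30% of them had a share of 25% or less, a limit chosen after the data had been seen. Ended at the nucleotide that holds 95% of the counts, the PDIA3 3′ UTR had 602 counts per kb past the stop codon region in place of 76.5, above the 558 per kb of its 5′ UTR. That of HSPA5 had 1171 per kb in place of 192, below its 5′ UTR.

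XBP1 was the one member whose mRNA is cut in the cytoplasm. The segment that IRE1 removes was read from the annotation as the 26 nt present in the transcript used here and missing from the annotated spliced form, at chr22:28796128-28796153 on the minus strand, nt 493 to nt 518 of the CDS. It is shown with its flanking nucleotides, the segment in capitals.
XBP1: ccGCAGCACTCAGACTACGTGCACCTCTgc

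The segment held 1 of the 110 XBP1 mRNA counts in DoHH-2 and 0 of 9 in GM01953, where a count of 0 lies below the floor of 3 counts and does not show absence. The 50 nt to each side of it held 2 counts in DoHH-2 and 0 in GM01953, so the 2 forms of the mRNA were not distinguishable at this depth. XBP1 counts were spread thinly, with at most 3 counts at a position in DoHH-2 and 2 in GM01953. The start codon region held 20 counts and the stop codon region 17 in DoHH-2, or 200 and 170 per kb, against 48.3 per kb in the CDS.

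The positions of the members in the shallower line largely recurred in the deeper line. Of the 298 positions listed in GM01953, 180 or 60.4% (54.6 to 66.0) were listed at the same nucleotide in DoHH-2, 74.2% within 1 nt and 92.3% within 5 nt. Over all coding genes the shares were 33.1%, 42.7% and 56.1%. DoHH-2 listed 14.4% of the members' mRNA nucleotides against a median of 1.16% over coding genes, and the part of this coverage in the difference was not tested. HSPA5 had 26 of 31 positions at the same nucleotide, HSP90B1 35 of 57, CALR 54 of 85 and CANX 17 of 35.

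Uridine was the most frequent base at the cross-linked nucleotide of the members. It made up 46.6% (45.5 to 47.8) of mRNA counts in DoHH-2 and 49.2% (44.8 to 53.5) in GM01953, against 25.8% of the bases of the 10 mRNAs. By region, it made up 24.1% (21.1 to 27.3) of 5′ UTR, 39.3% (37.8 to 40.9) of CDS and 62.8% (61.0 to 64.6) of 3′ UTR counts in DoHH-2, where the sequences themselves hold 14.7%, 22.0% and 32.0%. In GM01953 the shares were 52.2% (42.6 to 61.7), 44.5% (38.5 to 50.6) and 55.4% (47.0 to 63.6). Of the 113 GM01953 counts in 5′ UTRs, 22 lay at a single uridine of CANX. UV light is known to cross-link uridine most readily, so this measure does not separate the protein's preference from that of the method.

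PDIA4 had the highest uridine share in DoHH-2, 59.9% (56.1 to 63.6), against 22.5% of its mRNA. SSR4 was the exception in that line, with 19.7% (15.5 to 24.5) against 20.9% of its mRNA, and 144 of its 320 counts lay in the start codon region. In GM01953 the SSR4 share was 54.5% (23.4 to 83.3) of 11 counts. P4HB had 38.4% (34.0 to 43.1) in DoHH-2 and 62.8% (46.7 to 77.0) in GM01953, and HSP90B1 49.8% (47.0 to 52.6) and 63.2% (52.2 to 73.3).

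Reads of some members can be shared with copies elsewhere in the genome. Of the 31-nt words of the mRNAs, 29.6% in PDIA3, 25.1% in HSP90B1 and 24.7% in HSPA5 also occurred outside the gene, 4.22% in CALR and at most 1.10% in each of the other 6. In DoHH-2, 13.9% of HSPA5 counts, 9.07% of HSP90B1 counts and 6.76% of PDIA3 counts were followed by such a word, and 4.49% over all 10 members, against 0.563% in GM01953. For HSPA5 these were 188 of 1355 mRNA counts in DoHH-2 and 0 of 54 in GM01953. Whether HSPA5 stays past 2-fold without these counts was not tested. The GM01953 shares of HSP90B1 and PDIA3 were 3.45% and 0%. The annotated copies HSP90B2P, HSP90B3P, PDIA3P1 and SSR4P1 were listed with 9, 1, 1 and 14 counts in DoHH-2 and 0, 2, 0 and 0 in GM01953. How reads that map to more than 1 place were counted is not given in the sources used here. Values of HSPA5, HSP90B1 and PDIA3 are therefore uncertain. These shares set no limit to that, as any reads dropped at such words would not be counted in them.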

How the data were processed

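The authors ran eIF4B iCLIP on both lines, removed PCR duplicates by sequence, and demultiplexed and trimmed the reads. Biological replicates with few reads were merged by the authors, which gave 4 DoHH-2 and 2 GM01953 replicates. Per the submitters' processing notes and the study's methods, reads were mapped to GRCh38 with HISAT2 and cross-link sites were called with iCount. Versions and the annotation release are not given in the sources used here. The deposited tables give, per position, the cDNA counts pooled over replicates and a false discovery rate, a p-value adjusted by the authors. A column of counts summed over neighbouring positions was not used. Intervals cover counting error only, since duplicates may remain and reads are not independent molecules.

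Counts at unique positions were summed by gene name and divided by all counts of the line. Deposited positions were 0-based, checked on base composition at both strands, and 1 was added. Positions were placed on the MANE Select transcript of GENCODE release 44, or, for XBP1 and other genes without one, on the longest coding transcript. Windows are 30 nt long and the first of equal windows was taken; regions shorter than 10 nt got no density. Intervals are exact Clopper-Pearson for shares, exact Poisson for CPM and conditional binomial for ratios. No test was run. The scripts used Python 3.11.15, numpy 2.4.6, pandas 2.3.3, scipy 1.17.1 and pysam 0.24.0, and the folds, intervals and regions were tested on simulated data.

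The members and gene lists were chosen with earlier results of these data known. Every member was named, and of the other ER genes up to 2 per group and direction with the largest fold past the filter. Sequences show the highest position on the mRNA of a member in a line. Alternatives changed the positions used, the denominator, the weight, the filter, the fold, the transcript, the codon region and the minimum count. A marker gene of the B-cell list is not reported here.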

Additional observations from a re-analysis of the deposited data

How the results depend on the processing

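No paired analysis was possible because each deposited table pools the replicates of its line, and for the same reason no replicate could be left out. The share of counts on the members, 0.388% in DoHH-2 and 0.334% in GM01953, was 0.624% and 0.372% at positions with a false discovery rate below 0.05 (ratio 1.68), 0.433% and 0.397% of counts assigned to a gene, 0.464% and 0.373% without histone genes, and 0.368% and 0.38% with each position counted once, where the ratio reversed to 0.969. The members past 2-fold were then 0 in DoHH-2 and 1 (CALR) in GM01953, 1 in DoHH-2 with gene-assigned counts, and 1 in GM01953 at a fold of 1.5. Of all genes, 23.9% and 16.2% were higher in DoHH-2 and in GM01953 by position, and 18.8% and 22.2% with gene-assigned counts. At a fold of 1.5 these shares were 31.2% and 29.6%. The median log2 fold of all genes moved from 0.04 to -0.87 at low false discovery rates, 0.23 with each position counted once, 0.15 without histone genes, -0.11 without the filter, and 0.52 without the highest position of each gene, a setting chosen after seeing the data. At low false discovery rates, where the median gene was that far below 0, the folds of HSPA5, HSP90B1 and CALR were 3.45, 2.49 and 0.794. By position they were 1.55, 0.799 and 0.376, and CANX stood at 1.34. Without the highest position of each gene CANX stood at 1.24.

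The 5′ UTR, CDS and 3′ UTR shares in DoHH-2 were 11.7%, 47.5% and 40.8% at low false discovery rates, 8.91%, 55.1% and 36.0% on the longest transcript, and 8.01%, 57.1% and 34.9% by position. In GM01953 the 5′ UTR share was 27.0% at low false discovery rates, 16.6% by position and 16.1% without the highest position of each member, and the CDS share was 45.6%, 56.0% on the longest transcript and 56.0% without that position. The number of members densest in a region moved in DoHH-2 to 2 (5′ UTR), 1 (CDS) and 1 (stop) on the longest transcript, 2 (start) at low false discovery rates, 1 (stop) and 1 (3′ UTR) by position, and 2 (start), 1 (stop) and 1 (3′ UTR) with codon regions of 25 nt. In GM01953 it moved to 1 (5′ UTR), 1 (CDS), 2 (stop) and 0 (3′ UTR) on the longest transcript, 1 (CDS) at low false discovery rates, 1 (start) and 0 (stop) by position, 4 (5′ UTR), 1 (start) and 2 (stop) with 25 nt, and 1 (start) and 0 (stop) with more than 50 counts.

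Bound members in GM01953 fell to 2 with more than 50 counts and 5 at a false discovery rate below 0.01. Shared positions were 74.2% within 1 nt, 92.3% within 5 nt and 53.6% among sites of both lines. Uridine was 38.7% by position in DoHH-2 and 39.4% at the next nucleotide in GM01953. Without CALR, 41.1% of start codon counts lay before the codon in DoHH-2. The cause of these moves was not tested. The other 63 values of these comparisons moved by less than their counting interval or by at most 1.5 times. Among them, the members densest in the 5′ UTR in DoHH-2 went from 4 to 6 with codon regions of 25 nt.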
